A study of Homo sapiens with 46 samples.

Results

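EML2, PROCR, SLC44A2, DRAP1 and HOXB9 are 5 protein-coding genes of the 58735 genes in the count table. All 5 were called against the control after treatments aimed at complex I, CYTB and COX mRNAs, though not in every treatment. They were chosen from measured values, namely the comparison of each treatment with the control: a gene entered when its transcript was called (an adjusted p under 0.05) after silencing of at least 1 of the 5 complex I subunits ND1, ND2, ND3, ND4L and ND5, after CYTB silencing, and after silencing of at least 1 of the 3 complex IV subunits COX1, COX2 and COX3, but after neither ATP6 nor ATP8 silencing. This held for 6 of the 20272 genes tested (0.0296%). The 6th, the pseudogene MTCO1P12, is not described here, and a further 4 genes called in the same 3 groups were also called after ATP6 or ATP8 silencing. The choice lay close to the threshold. Taking for each gene the weakest of its 3 group calls, DRAP1 (adjusted p = 0.0461) and PROCR (0.0455) stood just inside and DTL (0.0514) and ANXA1 (0.0526) just outside (edgeR quasi-likelihood test, all adjusted over all genes). For this reason the levels and fold changes of the 5 genes against the control are given below as a description, without a test.

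The libraries came from wild-type HEK293T cells, a line of human embryonic kidney origin, lysed 48 h after 1 of 11 chimeras had been added to the medium at 2 µM with the delivery agent EndoPorter. A chimera is a morpholino, an uncharged antisense oligomer, coupled to pCox4, a presequence that carries it into mitochondria, where it blocks the translation of the mitochondrial mRNA it matches (ND1, ND2, ND3, ND4L, ND5, CYTB, COX1, COX2, COX3, ATP6 or ATP8). The control cells received pCox4 without a morpholino, so silencing of a given mRNA and the presence of a morpholino in mitochondria cannot be told apart in a comparison with the control. There were 46 poly(A) RNA-seq libraries, 4 for the control and for most treatments. COX2 (without a replicate 1) and ND2 (without a replicate 2) had 3 each. Batch 1 holds replicates 1 and 2 and batch 2 replicates 3 and 4, and the study handled the batches on separate days with separate reagents. All 11 comparisons use the same 4 control libraries, 2 in each batch, so an agreement in direction among the treatments is not made of independent observations. The paper calls the replicates biological, and p-values measure the spread between these libraries.

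Total counts ranged from 18876395 to 28121898 per library, apart from COX3 replicate 4 with 100698084. Of the mRNAs aimed at, 3 were lower (MT-CO1, MT-CO3 and MT-CYB) and 3 higher (MT-ND1, MT-ND2 and MT-ND3) than in the control, and the other 5 were not called (edgeR, adjusted p from 0.182 to 0.855), which is no measure of translation. The summed level of 6 HEK293 markers was 1144 to 1323 CPM (counts scaled to library size) in the control libraries and 1113 to 1418 CPM in the treated ones. That of 6 endothelial markers was 2.08 to 2.97 CPM in the control and 1.16 to 4.14 CPM in the treated libraries, with CDH5 and TEK below the filter on low counts. The 5 leukocyte and erythroid markers summed to at most 1.02 CPM, with none tested, and the 5 fibroblast and liver markers to 26.4 to 37.1 CPM, most of it COL1A1, which reached 31.2 CPM. No gene of these marker lists was called in any treatment (edgeR).

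The 5 genes belong to unrelated pathways. EML2 encodes a microtubule-associated protein of the EML family, whose members carry WD repeats and influence microtubule assembly. PROCR encodes the endothelial protein C receptor, a membrane protein that binds protein C and presents it for activation by thrombin bound to thrombomodulin; it is best known from endothelium, although other cells also express it. SLC44A2 encodes a choline transporter-like protein of the plasma membrane and mitochondria and carries the human neutrophil antigen 3. DRAP1 is the alpha subunit of negative cofactor 2 (NC2), a histone-fold dimer with DR1 that binds the TATA-binding protein TBP on promoters and hinders the assembly of the transcription machinery. HOXB9 is a homeodomain transcription factor of the HOXB cluster, which patterns the body axis in the embryo, and HEK293 cells keep many HOX genes switched on.

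In the coordinates of the count table (GRCh38), EML2 (ENSG00000125746) lies on the minus strand of chromosome 19 from 45606994 to 45645629. PROCR (ENSG00000101000) lies on the plus strand of chromosome 20 from 35172073 to 35216240, and SLC44A2 (ENSG00000129353) on the plus strand of chromosome 19 from 10602457 to 10644559. DRAP1 (ENSG00000175550) spans 65919257 to 65921561 on the plus strand of chromosome 11, and HOXB9 (ENSG00000170689) 48621159 to 48626356 on the minus strand of chromosome 17. The starts of 4 of them are covered by promoter windows from RefSeq (GRCh38.p14; 250 bases before to 50 after a start), and HOXB9 had no entry in that table. The windows at the gene starts are shown because the 4 genes that were higher after silencing differ in the elements these windows hold. Capitals mark matches, on either strand, to the GC box (GGGCGG), the CCAAT box (CCAAT) and the TATA box (TATAAA), and matches to the GC box may overlap each other.
DRAP1, chr11:65919176-65919475, plus strand: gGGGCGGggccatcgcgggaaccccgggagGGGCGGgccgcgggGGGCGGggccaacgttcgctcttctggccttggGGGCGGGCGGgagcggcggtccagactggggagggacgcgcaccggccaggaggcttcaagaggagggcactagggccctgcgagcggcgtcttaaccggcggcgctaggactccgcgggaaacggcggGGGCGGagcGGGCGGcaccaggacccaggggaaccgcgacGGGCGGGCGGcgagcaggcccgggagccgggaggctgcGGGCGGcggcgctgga
SLC44A2, chr19:10602205-10602504, plus strand: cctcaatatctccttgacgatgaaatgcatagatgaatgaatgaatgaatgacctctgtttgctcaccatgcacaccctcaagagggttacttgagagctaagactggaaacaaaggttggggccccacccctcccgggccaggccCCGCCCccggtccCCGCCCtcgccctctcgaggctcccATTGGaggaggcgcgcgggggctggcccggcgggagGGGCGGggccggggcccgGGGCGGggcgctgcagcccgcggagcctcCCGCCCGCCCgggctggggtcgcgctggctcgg
EML2, chr19:45645580-45645879, minus strand: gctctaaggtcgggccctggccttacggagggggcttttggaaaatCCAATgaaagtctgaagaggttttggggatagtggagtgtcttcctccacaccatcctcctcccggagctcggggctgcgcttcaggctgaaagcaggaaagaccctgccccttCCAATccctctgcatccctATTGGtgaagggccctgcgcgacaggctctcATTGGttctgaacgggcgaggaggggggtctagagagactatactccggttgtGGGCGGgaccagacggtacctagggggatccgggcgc
PROCR, chr20:35171822-35172121, plus strand: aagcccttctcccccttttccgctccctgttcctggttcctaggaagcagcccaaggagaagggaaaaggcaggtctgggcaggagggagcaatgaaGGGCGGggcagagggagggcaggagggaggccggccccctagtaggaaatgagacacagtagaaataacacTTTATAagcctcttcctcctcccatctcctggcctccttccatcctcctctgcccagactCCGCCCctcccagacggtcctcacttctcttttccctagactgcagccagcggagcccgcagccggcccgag
The GC box was found at 10 positions in the DRAP1 window, 6 in that of SLC44A2, 2 in that of PROCR and 1 in that of EML2, and at least 1 match stood in 44.95% of all 35116 windows of this length. The CCAAT box was found at 4 positions in the EML2 window and 1 in the SLC44A2 window (34.6% of all windows), and a TATAAA match occurred in the PROCR window alone among these 4 (11.5% of all windows). None of the 9 windows listed for the 4 genes held the E-box CACGTG, the cyclic AMP response element TGACGTCA, the NRF1 core motif or the HOX core TTTATGG, which occur in 7.26%, 1.85%, 1.24% and 2.54% of all windows. No element was common to the 4 windows shown apart from the GC box. The GC content of the windows shown was 79.0% for DRAP1, 69.0% for SLC44A2, 61.0% for PROCR and 60% for EML2, against a median of 58.7% over all windows. Other windows of EML2 and SLC44A2 differed from these. The EML2 window from 45645314 to 45645613 held the GC box at 0 positions and had 73.7% GC.

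Per kilobase of the gene length in the table, HOXB9 had a mean level of 27.4 CPM per kb over the 46 libraries and DRAP1 26.7, at percentiles 91.6 and 91.4 of the genes tested. PROCR had 15.5 and SLC44A2 14.1 CPM per kb (percentiles 84.2 and 82.7), and EML2 4.01 (percentile 57.1). The lowest count of any of the 5 in a library was 412, for PROCR. The transcripts of DRAP1 (63.2% GC, percentile 93.6) and EML2 (60.01%, percentile 86.1) are rich in GC compared with the genes tested, and those of SLC44A2 (56.3%), HOXB9 (55.3%) and PROCR (52.4%) lie between percentiles 62.8 and 75.2.

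**Figure D1:**
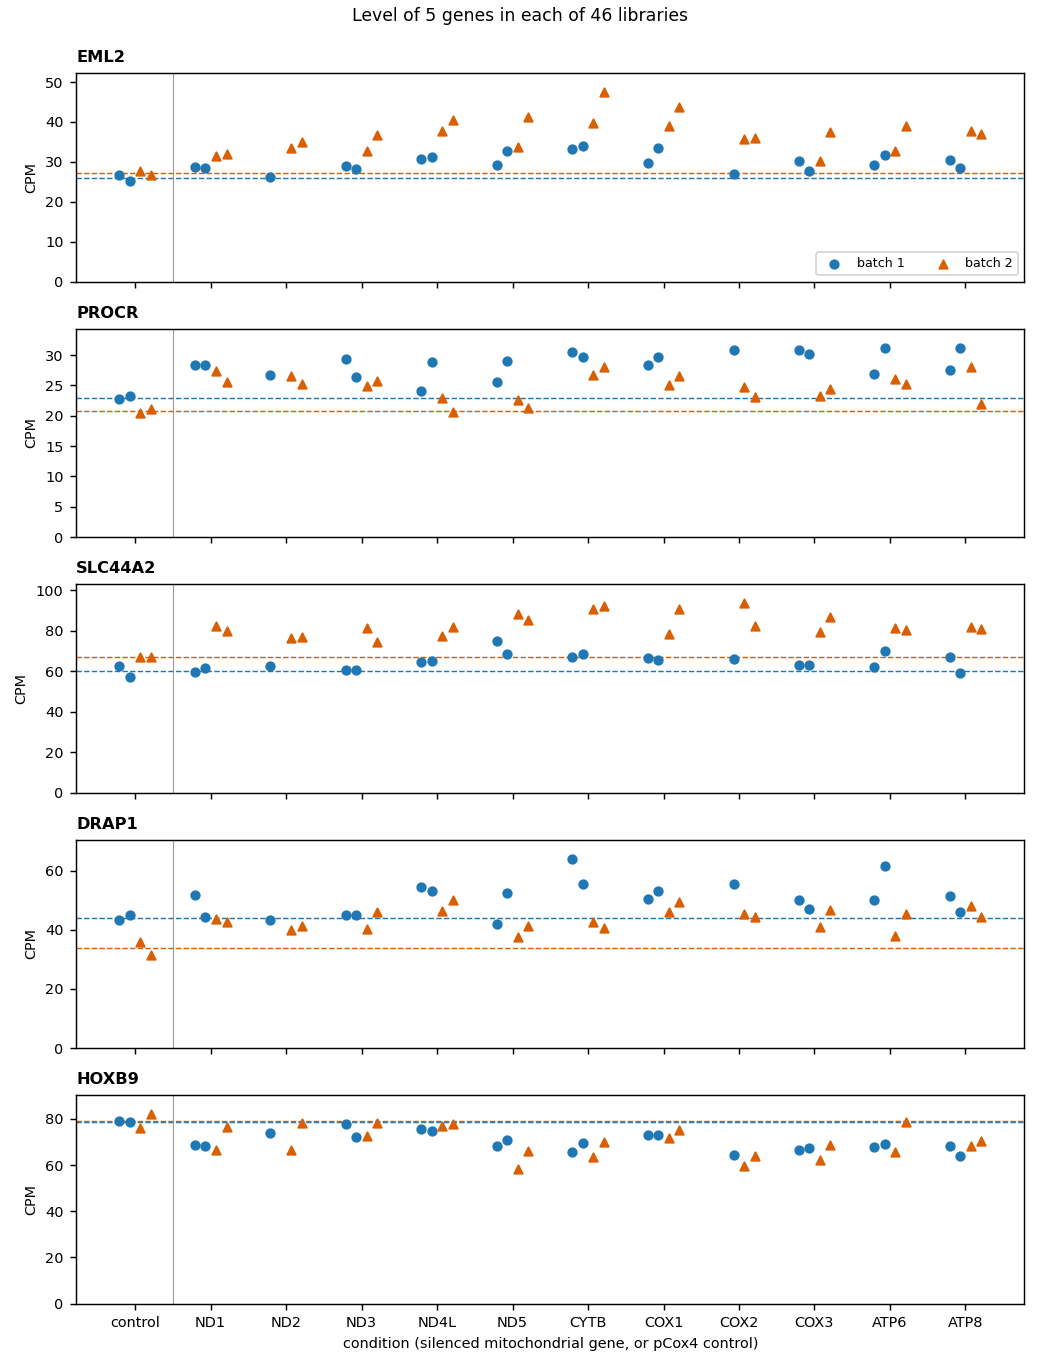
Level of the 5 genes (CPM, from 0) in each of the 46 libraries, by condition, with circles for batch 1 (replicates 1 and 2), triangles for batch 2 (replicates 3 and 4) and a dashed line at the mean of the 2 control libraries of each batch. EML2 and PROCR stand above both controls of their batch in 41 of 42 treated libraries, HOXB9 below them in 36, and SLC44A2 and EML2 stand higher in batch 2 than in batch 1.

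EML2 was higher than in the control after every treatment, and its largest difference followed CYTB silencing. The control libraries held 26.7, 25.2, 27.7 and 26.8 CPM (replicates 1 to 4) and the CYTB libraries 33.2, 34.0, 39.7 and 47.5 CPM, without overlap. This is a log2 fold change of 0.53 (standard error 0.07), or 1.44-fold. COX1 silencing gave 29.7, 33.3, 38.9 and 43.8 CPM (log2 fold change 0.44), ND4L silencing 30.8, 31.3, 37.6 and 40.5 CPM (0.39) and ND5 silencing 29.2, 32.8, 33.7 and 41.3 CPM (0.36). These are the 4 treatments in which EML2 was called, and in each of them all 4 libraries stood above both controls of their batch. In the remaining 7 treatments the log2 fold change lay between 0.18 (ND1) and 0.32 (ATP8), with 26.2 CPM as the lowest library (ND2 replicate 1). Over all treatments 41 of 42 libraries stood above both control libraries of their batch, which 0.0839% of the genes tested matched or exceeded, and their levels were 101% to 174% of the mean of those controls (median 123%).

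PROCR was likewise higher in all 11 treatments. The control libraries held 22.7, 23.3, 20.4 and 21.1 CPM, and the CYTB libraries 30.5, 29.7, 26.8 and 28.03 CPM, a log2 fold change of 0.39 (standard error 0.07; 1.31-fold). After ND1 silencing the level was 28.4, 28.4, 27.4 and 25.5 CPM (log2 fold change 0.33) and after COX3 silencing 30.8, 30.2, 23.3 and 24.4 CPM (0.31). None of these 12 libraries overlapped the controls of its own batch. PROCR was called after these 3 treatments, but the values after COX1 (0.32), ATP6 (0.32) and ATP8 (0.31) silencing lay between those that were called. The lowest values followed ND4L (0.14) and ND5 silencing (0.16), where batch 2 held 22.9 and 20.7, and 22.6 and 21.2 CPM, close to its controls. As with EML2, 41 of 42 treated libraries exceeded both controls of their batch (0.0839% of genes).

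SLC44A2 showed smaller differences, and the batches stood apart. The control libraries held 62.6, 57.2, 67.0 and 66.8 CPM. After ND5 silencing the level was 74.9, 68.4, 88.4 and 85.3 CPM, a log2 fold change of 0.32 (standard error 0.05; 1.24-fold), and after CYTB silencing 67.0, 68.4, 90.8 and 92.4 CPM (0.31). The 3 COX2 libraries (replicates 2, 3 and 4) held 66.1, 93.7 and 82.6 CPM (0.28). These 3 treatments were called, and each of their libraries exceeded both controls of its batch, whereas some batch 1 libraries did not exceed control replicates 3 and 4. In the other treatments the log2 fold change ran from 0.12 (ND3) to 0.24 (COX1). In batch 2 all 22 treated libraries stood above both controls and in batch 1 14 of 20, together 36 of 42 (1.67% of genes matched or exceeded this).

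DRAP1 was the most variable of the 5 genes within a condition. The control libraries held 43.3 and 44.9 CPM in batch 1 and 35.9 and 31.5 CPM in batch 2. ND4L silencing gave 54.5, 53.1, 46.5 and 49.9 CPM, a log2 fold change of 0.40 (standard error 0.08; 1.32-fold). CYTB silencing gave 64.0, 55.4, 42.7 and 40.6 CPM (0.38) and COX2 silencing 55.6, 45.5 and 44.2 CPM in replicates 2, 3 and 4 (0.36). In these 3 treatments, where DRAP1 was called, every library stood above both controls of its batch, but 3 batch 2 libraries stood below the higher batch 1 control. The log2 fold change after COX1 silencing, 0.36, was not called, and the others ran from 0.14 (ND2) to 0.32 (ATP6). In all, 39 of 42 treated libraries lay above both controls of their batch (0.429% of genes) and 2 below them, ND2 replicate 1 and ND5 replicate 1.

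HOXB9 was the only one of the 5 that was lower than in the control, in all 11 treatments. The control libraries held 79.2, 78.5, 75.8 and 82.0 CPM, and the 3 COX2 libraries 64.2, 59.7 and 63.8 CPM, so that HOXB9 fell by 0.33 on the log2 scale (standard error 0.06), to 0.793 of the control level. After ND5 silencing it was at 68.1, 70.9, 58.2 and 65.9 CPM (log2 fold change -0.26), after COX3 silencing at 66.7, 67.2, 62.4 and 68.6 CPM (-0.25) and after CYTB silencing at 65.5, 69.7, 63.6 and 70.1 CPM (-0.23). No library of these 4 treatments, in which HOXB9 was called, overlapped the control range. ND4L silencing left the smallest difference, with 75.8, 74.7, 76.7 and 77.6 CPM (-0.05), within the control range in part. In 36 of 42 treated libraries HOXB9 was below both controls of its batch (1.18% of genes matched or exceeded this) and in none was it above them.

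**Figure D2:**
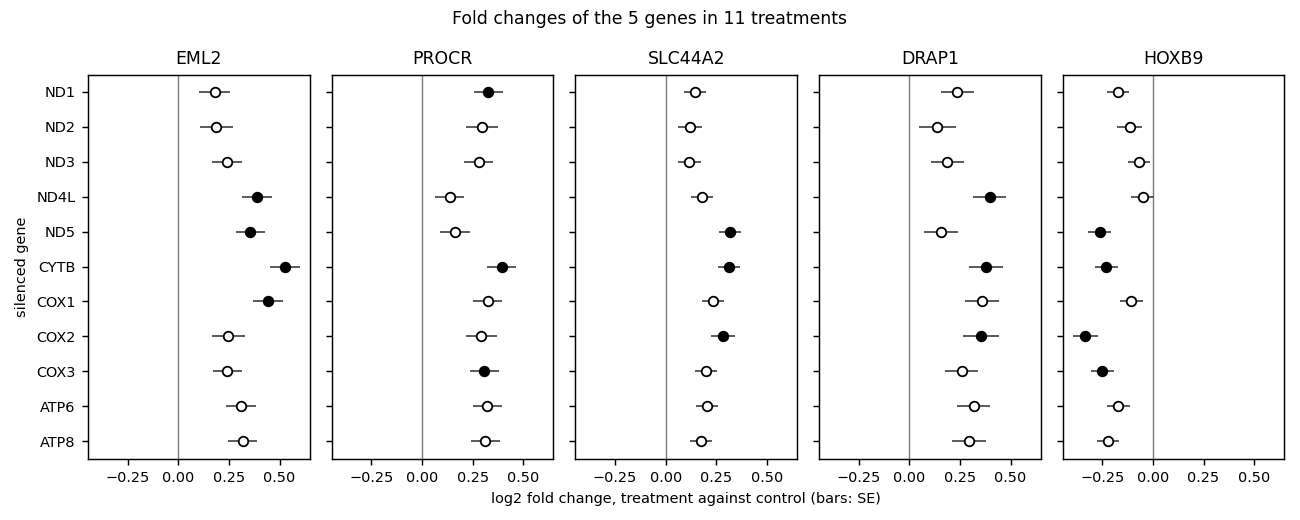
Log2 fold change of each gene in each treatment against the control (points, with bars of 1 standard error), filled where the gene was called and open where it was not. EML2, PROCR, SLC44A2 and DRAP1 lie above 0 and HOXB9 below 0 in all 11 treatments, and the open points after ATP6 and ATP8 silencing lie among the filled ones for PROCR.

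The calls behind the choice numbered 17 of 55 gene and treatment pairs, 13 of them higher and 4 lower. All 5 genes were called after CYTB silencing (0.548% of the 20272 genes), which the rule required of each. The rule also required a complex I call and a COX call, so the calls there were fixed in part. After COX2 silencing (0.469% of genes) and ND5 silencing (0.158%) 3 each were called. EML2 and DRAP1 were called after ND4L silencing (0.148%), PROCR and HOXB9 after COX3 silencing (0.306%), EML2 after COX1 silencing (0.0543%) and PROCR after ND1 silencing (0.0888%). None was called after ND2 (0.0247% of genes), ND3 (0.00987%), ATP6 (0.00987%) or ATP8 silencing (0.0641%), the last pair by the rule itself. The direction was uniform, which follows in part from the choice. The genes were chosen for calls against the same controls that every treatment is compared with. All 44 log2 fold changes of EML2, PROCR, SLC44A2 and DRAP1 were above 0 and all 11 of HOXB9 below 0. With the shared controls, 11.8% of all genes tested were above 0 and 10.8% below 0 in all 11 treatments. These shares cover all genes, called or not, and are no measure for genes chosen by their calls. The ATP values, from 0.18 to 0.32 for the 4 higher genes and -0.17 and -0.22 for HOXB9, lay inside the range of the complex I, CYTB and COX values of each gene.

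In the order of the log2 fold changes, CYTB stood first for EML2 and PROCR, second for SLC44A2 and DRAP1, and COX2 was lowest for HOXB9. A high place of CYTB follows in part from the rule, which required a CYTB call. Neighbours in these orders mostly differed by less than the standard error of a difference between 4 and 4 libraries. That error was 0.07 (log2) for EML2 and PROCR, and the largest gap between neighbours was 0.09 for EML2 (CYTB against COX1) and 0.12 for PROCR (ND3 against ND5), the only gap of each that exceeded it. No neighbouring treatments were separated by as much as the error for SLC44A2 (0.05) or DRAP1 (0.09). For HOXB9 (0.06) 2 of the 10 gaps exceeded it, the largest being 0.07.

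The control libraries carried much of the weight of the calls. With control replicate 4 left out, 5 of the 17 calls of the 5 genes remained, with control replicate 3 left out 8, with control replicate 2 left out 11 and with control replicate 1 left out 12, besides 3 new ones. Across the 8 fits that left out 1 library of the comparison, the log2 fold change after CYTB silencing stayed between 0.46 and 0.58 for EML2, 0.37 and 0.42 for PROCR, 0.28 and 0.37 for SLC44A2, 0.29 and 0.44 for DRAP1, and -0.25 and -0.20 for HOXB9. Small differences moved more in proportion: with 1 library left out, the log2 fold change of HOXB9 after ND2 silencing ran from -0.17 to -0.05, that of SLC44A2 after ND3 silencing from 0.08 to 0.17 and that of PROCR after ND4L silencing from 0.08 to 0.18. The pairs called in all 8 fits were EML2 after CYTB and COX1 silencing, PROCR after CYTB silencing, and SLC44A2 after ND5 and CYTB silencing.

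The batch coefficient, which the choice of the genes did not use, was tested next. The level in batch 2 was above that in batch 1, conditions being equal, by 0.34 (log2) for SLC44A2 (edgeR, standard error 0.02, adjusted p = 1.84e-18) and by 0.29 for EML2 (standard error 0.03, adjusted p = 1.31e-11). It was below it for DRAP1 (log2 difference -0.23, standard error 0.03, adjusted p = 1.24e-07, edgeR) and PROCR (-0.21, standard error 0.03, adjusted p = 3.71e-08). For HOXB9 no difference was detected (0.00035, standard error 0.02, adjusted p = 0.991, edgeR). A batch difference was common, with 57.1% of the genes tested called, and HOXB9 was the exception among the 5 genes. Among the treated libraries SLC44A2 ranged from 59.0 to 74.9 CPM (median 64.8) in batch 1 and from 74.7 to 93.7 CPM (median 81.7) in batch 2, nearly without overlap. EML2 ranged from 26.2 to 34.0 CPM (median 29.4) in batch 1 and from 30.1 to 47.5 CPM (median 36.8) in batch 2. The control means of batches 1 and 2 were 59.9 and 66.9 CPM for SLC44A2 and 25.9 and 27.3 CPM for EML2. They were 44.1 and 33.7 CPM for DRAP1 and 23.0 and 20.7 CPM for PROCR.

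Within each batch the direction of the treatment differences was the same, except for DRAP1 after ND2 silencing in batch 1 (log2 fold change -0.03, from 1 library). The median log2 fold change over the 11 treatments was 0.18 in batch 1 and 0.39 in batch 2 for EML2, 0.11 and 0.28 for SLC44A2, and 0.14 and 0.36 for DRAP1. For PROCR it was 0.33 in batch 1 and 0.28 in batch 2, and for HOXB9 -0.20 and -0.14. The difference between the batches was tested for the mean of the 11 treatments against the control. It was 0.24 for EML2 (standard error 0.11, adjusted p = 0.963, edgeR), 0.20 for SLC44A2 (standard error 0.08, adjusted p = 0.963) and 0.18 for DRAP1 (standard error 0.11, adjusted p = 0.963). For PROCR it was -0.06 (standard error 0.11, adjusted p = 0.990, edgeR) and for HOXB9 -0.0041 (standard error 0.09, adjusted p = 1.00). Before adjustment, p was 0.0387 for EML2, 0.0191 for SLC44A2, 0.12 for DRAP1, 0.582 for PROCR and 0.963 for HOXB9 (edgeR). Each batch had only 2 control libraries. No gene of the 20272 was called in this comparison (0.0%; 1012 at an unadjusted p under 0.05 in edgeR and 845 in DESeq2, which called none either). With no filter on low counts, 18 of 47354 genes were called (11 higher, 7 lower, edgeR), none of them among the 5 genes (adjusted p = 1.00 for each).

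**Figure D3:**
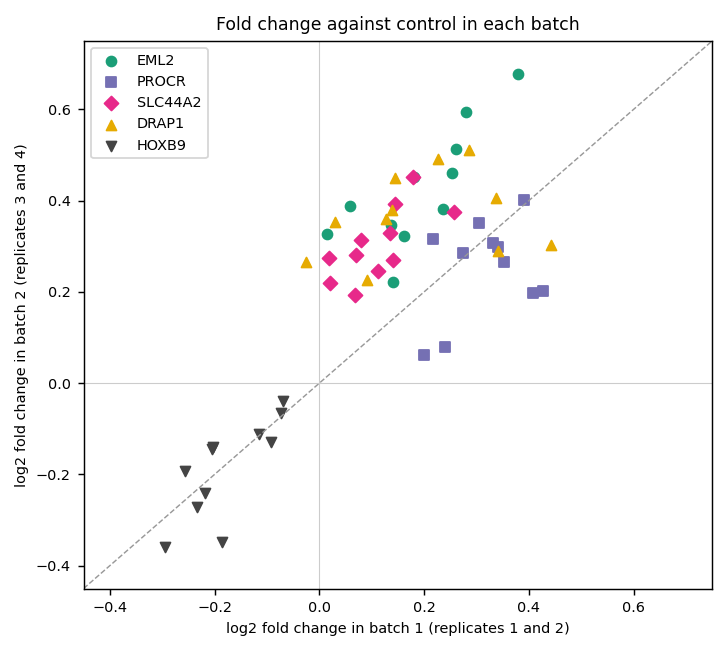
Log2 fold change against the control in batch 1 (horizontal axis) and batch 2 (vertical axis), 1 point per gene and treatment, with a dashed line where both are equal. The points of SLC44A2 and EML2 lie above the line in all 11 treatments, those of PROCR and HOXB9 on both sides of it, and 1 point of DRAP1 lies left of 0.

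The residuals of single libraries from the additive fit of condition and batch were compared between the 5 genes. They still hold any difference between batches in a treatment effect. The spread of each gene around such a fit entered the tests behind the choice, but the relation between genes did not. Of the 10 pairs, 2 passed a two-sided permutation test with 100000 resamples over the 46 libraries, with p-values adjusted over the 10 pairs. The residuals come from a fit with 33 residual degrees of freedom and are not independent, so these p-values may be too small. EML2 and DRAP1 deviated together (Pearson r = 0.47, p = 0.00107, adjusted p = 0.00535, permutation test; Spearman rho = 0.54, p = 0.00011, adjusted p = 0.0011). So did EML2 and HOXB9 (r = 0.47, p = 0.00103, adjusted p = 0.00535, permutation test; rho = 0.47, p = 0.00089, adjusted p = 0.00445), although these genes differed from the control in opposite directions. Without the 2 libraries farthest from the median of EML2 the values were r = 0.59 and r = 0.42 (adjusted p = 0.0005 and 0.0223, permutation test). Within the batches, EML2 and DRAP1 had r = 0.43 in batch 1 and 0.52 in batch 2. EML2 and HOXB9 had r = 0.15 in batch 1 and 0.58 in batch 2, and a difference between the batches was not tested. Both relations were weaker once the trend of each library with the GC content of the genes had been taken out, a step added after the data were seen. There r was 0.19 for EML2 and DRAP1 (adjusted p = 0.641, permutation test) and 0.36 for EML2 and HOXB9 (adjusted p = 0.139). The other 8 pairs had r between 0.0016 and 0.31 (adjusted p from 0.122 to 0.992, permutation test), and those of PROCR with the other 4 had r from 0.0016 to 0.13.

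The comparison was repeated on the difference between the 2 libraries of the same condition and batch, which existed in 22 cases, with the libraries swapped within each case in the permutation test. This step, and the one that follows it, were added after the data were seen. EML2 and DRAP1 had r = 0.65 (adjusted p = 0.0133, permutation test) and EML2 and HOXB9 r = 0.69 (adjusted p = 0.004). In batch 2, however, HOXB9 was higher in replicate 4 than in replicate 3 in 12 of 12 conditions, by a mean of 0.13 (log2 CPM), and EML2 in 10 of 12, also by a mean of 0.13. In batch 1 the second of the 2 replicates was the higher one in 5 of 10 conditions for either gene. With the mean difference between the replicate numbers of a batch removed, and the conditions permuted within batches, EML2 and DRAP1 had r = 0.67 (adjusted p = 0.0072, permutation test; 0.65 in batch 1 and 0.73 in batch 2). EML2 and HOXB9 had r = 0.37 and no longer passed (adjusted p = 0.273, permutation test; 0.54 in batch 1 and 0.28 in batch 2). The GC trend was still present in both steps, so they do not show whether these relations hold without it.

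The treatment differences were also computed with the GC trend removed. The median log2 fold change over the 11 treatments was 0.26 for DRAP1 (0.29 with it) and 0.26 for EML2 (0.31 with it). It was 0.16 for SLC44A2 (0.20 with it), 0.29 for PROCR (0.31) and -0.21 for HOXB9 (-0.17). The direction was unchanged in all 55 pairs under this setting, in which 24 were called.

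Over all 46 libraries, with the batch means removed, the genes with the most similar pattern among 13067 protein-coding genes with a mean of at least 1 CPM were as follows, given as a description, since the libraries share controls, depth and base composition. DRAP1 was closest to CYBA, a subunit of the phagocyte NADPH oxidase (Pearson r = 0.89), EDF1, a transcriptional coactivator (0.87), and the tetraspanin CD63 (0.87). EML2 was closest to HDGFL2 (0.81), the actin-binding protein DBN1 (0.81) and the ARID-domain protein ARID3A (0.79). HOXB9 was closest to smooth muscle actin ACTA2 (0.77), the bromodomain protein BRD3 (0.73) and the phosphatase DUSP8 (0.72). PROCR was closest to the seryl-tRNA synthetase SARS (0.69), the sphingomyelinase SMPD2 (0.69) and the chloride channel protein CLIC1 (0.66). SLC44A2 was closest to SFXN3, a sideroflexin of the mitochondrial inner membrane (0.69), SMIM10L2A (0.69) and the translation factor MIF4GD (0.68). None of the 5 genes was among the 3 closest to another of them. With the 42 treated libraries alone, 7 of these 15 genes remained among the 3 closest, and with Spearman's rho 6.

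Genes that overlap the 5 or lie within 10000 bases were examined because the use of strand in counting is not given in the sources used here, and 10 of them passed the filter. None was called in any treatment (edgeR). PROCR overlaps MMP24OS on the opposite strand over 14496 bases, so reads of the pair could be shared. MMP24OS had a mean of 16.6 CPM and log2 fold changes from 0.02 to 0.25, above 0 in all 11 treatments (lowest adjusted p = 0.246, edgeR). DRAP1 starts 140 bases from C11orf68, which is read in the other direction and had log2 fold changes from -0.01 to 0.23 (lowest adjusted p = 0.315, edgeR). The nearest gene tested beside EML2 was OPA3, a gene for a mitochondrial membrane protein (-0.03 to 0.12, lowest adjusted p = 0.322), while EML2-AS1, antisense within EML2, had 38 counts over all libraries.

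HOXB9 lies within the span annotated for HOXB7 on the same strand, so that their reads could be shared too. HOXB7 had a mean of 18.2 CPM against 70.6 CPM for HOXB9, and its log2 fold change was between -0.21 and -0.06, below 0 in all 11 treatments (lowest adjusted p = 0.303, edgeR). HOXB8 (-0.29 to 0.10, lowest adjusted p = 0.528), HOXB-AS4 (-0.13 to 0.10, 0.766) and AC103702.2 (-0.14 to 0.05, 0.586) stood on both sides of 0. MIR196A1, a microRNA gene within the span of HOXB-AS4 on the opposite strand, had a mean of 0.945 CPM and log2 fold changes from 0.07 to 1.00 (lowest adjusted p = 0.350, edgeR). In the poly(A) libraries this counts reads over its locus, not the mature microRNA. The MIR196A1 locus also lies within the annotated span of HOXB7 on the same strand, so these reads could be shared with HOXB7.

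HOX genes other than HOXB9 were the only genes of the 5 pathway lists with any call. A list of 47 HOX genes and TALE cofactors (PBX, MEIS and PKNOX proteins, which bind DNA together with HOX proteins), HOXB9 not included, had 46 genes tested, and 6 of its 506 gene and treatment pairs were called, all 6 lower (1.19%, against 0.0664% called lower over all genes and treatments; edgeR). The calls fell on 5 genes. HOXB4 was at 12.2 ± 1.75 CPM after CYTB silencing (SD, n = 4), with 13.9, 13.1, 9.86 and 11.9 CPM, against 16.6 ± 1.13 CPM in the control (SD, n = 4). It fell by 0.44 on the log2 scale with a standard error of 0.09 (edgeR, adjusted p = 0.00738) and was called in 7 of the 8 fits that left out a library. HOXA9, a paralogue of HOXB9, had 82.2, 82.0, 82.2 and 81.5 CPM in the control, the narrowest range of these genes. It stood at 70.2, 73.1, 73.5 and 67.7 CPM after CYTB silencing (edgeR, log2 fold change -0.20, adjusted p = 0.0418, standard error 0.05) and 72.7, 69.6, 71.6 and 68.3 CPM after COX3 silencing (-0.22, standard error 0.05, adjusted p = 0.0335). All 8 of these libraries lay below both controls of their batch. The HOXA9 calls were kept in 1 of 8 fits without a library for CYTB and in 0 of 8 for COX3 (adjusted p from 0.0717 to 0.116, edgeR).

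Of the other calls, HOXA13 was lower after COX3 silencing (edgeR, log2 fold change -0.29, adjusted p = 0.0387, standard error 0.07), with 30.6, 29.1, 30.1 and 28.7 CPM against 33.6 to 39.7 CPM in the control, and the call was kept in 0 of 8 fits without a library. HOXB5 was lower after COX2 silencing (edgeR, -0.55 with a standard error of 0.13, adjusted p = 0.0352; kept in 2 of 7), with 5.38, 7.18 and 8.99 CPM against 8.20 to 12.4 CPM, and so was HOXB3 (-0.27, standard error 0.06, adjusted p = 0.0414; kept in 1 of 7), which is named here because its value completed the 5. The 2 other paralogues of group 9 were not called, HOXC9 with log2 fold changes from -0.17 to 0.09 (lowest adjusted p = 0.484, edgeR) and HOXD9 from -0.25 to 0.02 (0.144). Per kilobase, 2 of the 37 other HOX genes tested had a higher level than HOXB9.

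The median log2 fold change of the HOX and TALE list lay below 0 in every treatment, from -0.16 (COX2) to -0.04 (ND3), whereas the median of all genes tested lay between -0.0032 and 0.0040. It stayed below 0 in all 11 treatments under each of the 60 other settings and omissions of a library (-0.25 to -0.02). Of the 46 genes 34 (73.9%) had a median below 0 over the treatments, against 49.7% of all genes tested, and 18 were below 0 in all 11 treatments and 4 above 0. By cluster these were 8 of 8 HOXB genes, 8 of 11 HOXA genes, 7 of 9 HOXC genes and 5 of 9 HOXD genes, and 6 of 9 TALE genes. The treatments share their controls, so these counts are not independent of each other.

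**Figure D4:**
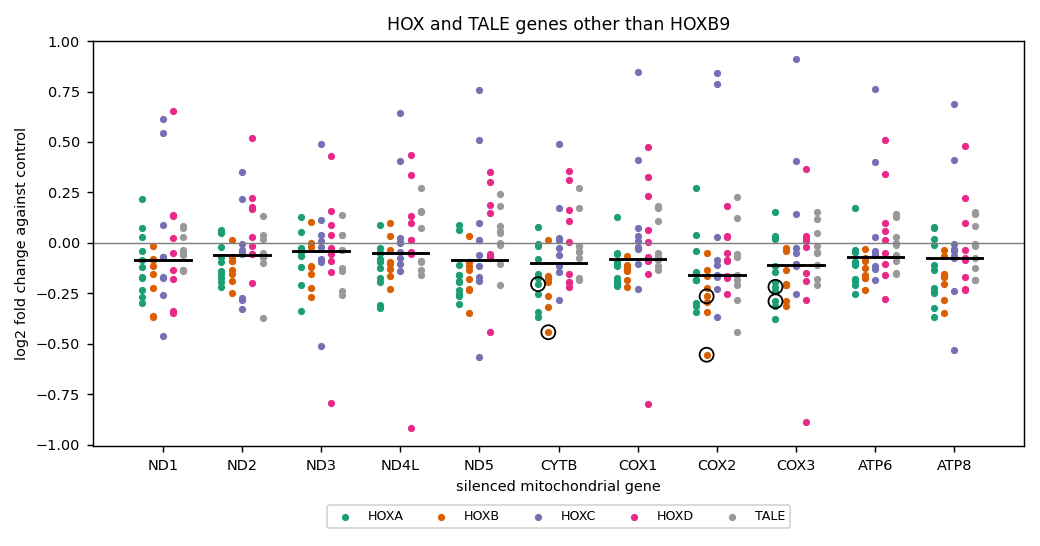
Log2 fold change against the control of 46 HOX and TALE genes other than HOXB9 in each treatment, coloured by cluster, with a black bar at the median of the list and a ring around the 6 called values. The median lies below 0 in each treatment, lowest after COX2 silencing (-0.16), and the rings lie below 0 after CYTB, COX2 and COX3 silencing.

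The genes that work with the 4 other members showed no call in any treatment (edgeR). Over all genes and treatments 0.104% of the pairs were called higher and 0.0664% lower, so that no call in lists of this size was near the background. Among 33 tested genes of the EML family and microtubule regulation, 17 had a median log2 fold change above 0 and 16 below, and the EML2 paralogue with the highest median was EML3 (0.18, from -0.01 to 0.26, lowest adjusted p = 0.0876). EML4, the most abundant paralogue in CPM (166 CPM in the control), had a median of -0.05. For the protein C pathway 15 of 20 genes were tested, 8 with a median above 0 and 7 below. Thrombomodulin (THBD), the partner of the receptor in protein C activation, was at 3.27 CPM in the control, with log2 fold changes from -0.43 to -0.11 (lowest adjusted p = 0.284, edgeR). Protein C itself (PROC) was at 0.385 CPM, and the thrombin receptor F2R, which activated protein C cleaves, at 61.5 CPM with log2 fold changes from -0.05 to 0.10 (lowest adjusted p = 0.583).

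In the list of choline transport and phosphatidylcholine synthesis 22 of 25 genes were tested, 11 with a median on either side of 0. SLC44A1, the paralogue of SLC44A2, was at 91.0 CPM in the control, with log2 fold changes from -0.14 to -0.04 (lowest adjusted p = 0.309, edgeR), and SLC44A5 between -0.25 and -0.05 (0.0808). For NC2 and the general transcription factors around TFIID all 26 genes were tested, 9 with a median above 0 and 17 below. DR1, the partner of DRAP1 in NC2, was at 139 CPM in the control and between -0.10 and 0.03 in log2 fold change (lowest adjusted p = 0.378, edgeR). TBP lay between -0.12 and -0.0033 (0.526) and BTAF1, which removes TBP from DNA, between -0.13 and 0.02 (0.297).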

How the data were processed

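Poly(A) RNA-seq of 46 HEK293T libraries was analysed from the table of raw counts of reads per gene, which the authors deposited without normalization or filter. Per the labels, the build is GRCh38.p12 and R 4.3.0, DESeq2 1.40.2 and limma 3.56.2 were used; the aligner, the counter and the use of strand are not given in the sources used here, and reads are described as paired-end in the paper and single-end in the sample records. All 58735 gene identifiers and positions match GENCODE 29. Gene starts, ends and lengths (bases) are those the authors deposited.

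Groups came from the sample titles and the batch from the replicate number, as the study describes. Counts were fitted in R 4.3.3 with edgeR 4.0.16 (filterByExpr, minimum count 10, 20272 genes; TMM; quasi-likelihood test; a term for condition and for batch; Benjamini-Hochberg over all genes). CPM are TMM-normalized; log2 CPM have a prior count of 2. The script was tested on simulated counts. No pair of replicates looked like a library deposited again (chi-square per degree of freedom 3.47 to 23.4 over 66 pairs). Depth was 18876395 to 100698084 counts (median 23413171); at a member's median count, counting error alone (Poisson) was 0.035 to 0.058 (log2), beside a residual SD of 0.073 to 0.126.

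The members, the lists and the tests were chosen with earlier results of these data known. Genes were named by rule: the 5 members, tested genes within 10000 bases (those beside SLC44A2 are not reported here), selected partners and paralogues, called genes of a list (up to 4 by adjusted p), and the 3 genes closest in pattern. Same-numbered libraries are paired by nothing in the labels: their deviations correlated above 0.1 in 5 of 42 pairs of a treatment and a control library (-0.20 to 0.16). Alternatives were another batch term, DESeq2 1.42.0, RLE size factors, other filters and library sizes, gene length and GC trends, single batches, COX3 replicate 4 drawn down and leaving out each library. Proteomics and imaging were not analysed here.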

Additional observations from a re-analysis of the deposited data

How the results depend on the processing

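The direction of all 55 differences between a treatment and the control held under every setting and omission of a library, except for DRAP1 after ND2 silencing in batch 1 alone. The number of calls of the 5 genes, 17 of 55, was 1 without a batch term, 26 with no filter, 0 in batch 1 alone, 6 in batch 2 alone, 27 with DESeq2 and a batch term and 5 with DESeq2 without one, and 5 to 19 when a library was left out. It lay between 16 and 24 under the other settings. All 17 calls were kept with DESeq2 and the batch term, which added 10. Whether any of the added calls followed ATP6 or ATP8 silencing, which the rule excluded, was not tested. In the fit of the report, the lowest adjusted p after these treatments was 0.0797 for PROCR, 0.0799 for EML2 and up to 0.198 (SLC44A2) for the others (edgeR). With 1 library left out, PROCR was called after ATP8 silencing in 1 of 8 fits, and the other members after neither. Gene and treatment pairs of the pathway lists called, 6 in the fit of the report, numbered 0 without a batch term, 17 with no filter, 11 with a stricter filter, 31 with the GC trend removed, 25 with only the libraries compared, 0 in batch 1 alone, 0 in batch 2 alone, 40 with DESeq2 and a batch term, 2 with DESeq2 without one, and 0 to 10 when a library was left out. Of the calls on the HOX list, 25 of 26 were lower with the GC trend removed and 31 of 35 with DESeq2 and the batch term. With the replicate number as a block in place of the batch, the members had 22 calls and the lists 16. The labels do not pair the libraries by number. In batch 2, however, HOXB9 was higher in replicate 4 than in replicate 3 in 12 of 12 conditions, and EML2 in 10 of 12.

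No gene next to the members was called under any setting or when any library was left out. The closest patterns shared 6 of 15 genes with the list by Spearman's rho, 7 of 15 with that of the treated libraries and 12 to 13 when a control library was left out. When a library was left out, the batch difference stayed between 0.28 and 0.30 for EML2, 0.33 and 0.35 for SLC44A2, -0.24 and -0.21 for DRAP1, -0.22 and -0.20 for PROCR, and -0.01 and 0.01 for HOXB9. The difference between batches in the treatment effect stayed between 0.20 and 0.28 for EML2, 0.13 and 0.26 for SLC44A2, 0.09 and 0.27 for DRAP1, -0.08 and -0.04 for PROCR, and -0.06 and 0.05 for HOXB9. The causes of these shifts were not tested. The correlation of EML2 with DRAP1 was weaker and no longer passed with the GC trend removed (r = 0.19). The correlation of EML2 with HOXB9 was weaker and no longer passed with the GC trend (r = 0.36) or the replicate number (r = 0.37) removed.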
